A study of Mus musculus with 12 samples.

Results

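The mRNAs of 7 genes whose proteins favour or restrain the formation of circular RNAs (circRNAs) were followed in the mouse thymus: Adar, Adarb1, Dhx9, Qk, Mbnl1, Mbnl2 and Ilf2. The members were chosen by name, and the estimated counts of all transcripts that carry a member's symbol were summed in each library. All 7 were among the 22843 gene symbols of the mRNA table and among the 14805 that passed the filter on low counts. The data came from whole thymus of wild type male C57BL/6 mice, from which rRNA was removed before sequencing, with 2 libraries at each age of 2 weeks (2W), 6 weeks (6W) and 3 months (3M). The labels name no treatment, and age is the difference between the groups that they give. Batches of harvest, library or sequencing are not stated in the sources used here. The ages cover the growth of the thymus after birth and the start of its decline. The libraries held 16519753 to 22553481 estimated mRNA counts and 10663 to 21914 back-splice junction counts, each of which is a read across the joint that closes a circRNA. The 3 comparisons (6W against 2W, 3M against 6W and 3M against 2W) share libraries with each other.

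A circRNA forms when the splicing machinery joins the end of an exon back to the start of the same or an earlier exon. Pairing between inverted repeats in the flanking introns brings the ends together, and proteins act on this step. Adar and Adarb1 encode the adenosine deaminases ADAR1 and ADAR2, which change adenosine to inosine in double-stranded RNA and so loosen the pairing, and Dhx9 encodes an RNA helicase that unwinds it. Qk encodes Quaking and Mbnl1 and Mbnl2 encode muscleblind-like proteins, which bind introns and can bring the ends of an exon together. Ilf2 encodes NF45, part of a complex that binds double-stranded RNA and favours back-splicing. Once made, circRNAs have no free end and are long-lived, and their removal depends on endonucleases.

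The amounts of the 7 mRNAs differed widely. On the scale of fragments per kilobase of transcript and 1000000 fragments (FPKM), which allows genes to be compared, the level over the 6 libraries ran from 148 to 168 for Mbnl1 and from 115 to 138 for Dhx9. Ilf2 followed with 55.1 to 64.0 FPKM, and these 3 ranges did not overlap. Qk (27.7 to 38.1 FPKM), Mbnl2 (29.6 to 35.6 FPKM) and Adar (20.9 to 37.6 FPKM) overlapped with each other. Adarb1, at 0.890 to 2.86 FPKM, was the lowest of the 7 in every library, and the ratio of Adar to Adarb1 in FPKM went from 28.1 and 22.3 at 2W to 11.0 and 16.4 at 6W and 11.7 and 15.9 at 3M. The summed FPKM of Adar, Adarb1 and Dhx9, the genes that restrain circRNA formation, stayed between 147 and 162 in the 6 libraries, and that of Qk, Mbnl1, Mbnl2 and Ilf2 between 263 and 295.

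Between 2W and 3M, both deaminase genes rose, and none of the other 5 genes passed the test. At an adjusted p under 0.05 (edgeR's quasi-likelihood test, Benjamini-Hochberg adjustment over all 14805 genes), 2 of the 7 members were called, both higher, where 11.0% of all genes were called and 7.91% were called higher. None of the 7 was called in 6W against 2W, where 1.74% of all genes were, nor in 3M against 6W, where 0.00675% were. At an unadjusted p under 0.05 there were 2, 1 and 2 of the 7 in 6W against 2W, 3M against 6W and 3M against 2W, beside 18.9%, 14.3% and 27.3% of all genes. In the same order limma on FPKM called 0, 0 and 2 members, for which no share over all genes is given. DESeq2 called 1 (Adarb1), 0 and 2, beside 6.37%, 3.00% and 14.9% of the genes it tested. The threshold used by the study, which takes an unadjusted p together with an absolute log2 fold change over 1, was passed by 1, 0 and 1 member, in each case Adarb1, beside 5.36%, 2.11% and 9.35% of all genes. The median log2 fold change of the members was -0.17, 0.16 and -0.11 in that order, beside -0.01, 0.02 and -0.03 over all genes tested.

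**Figure D1:**
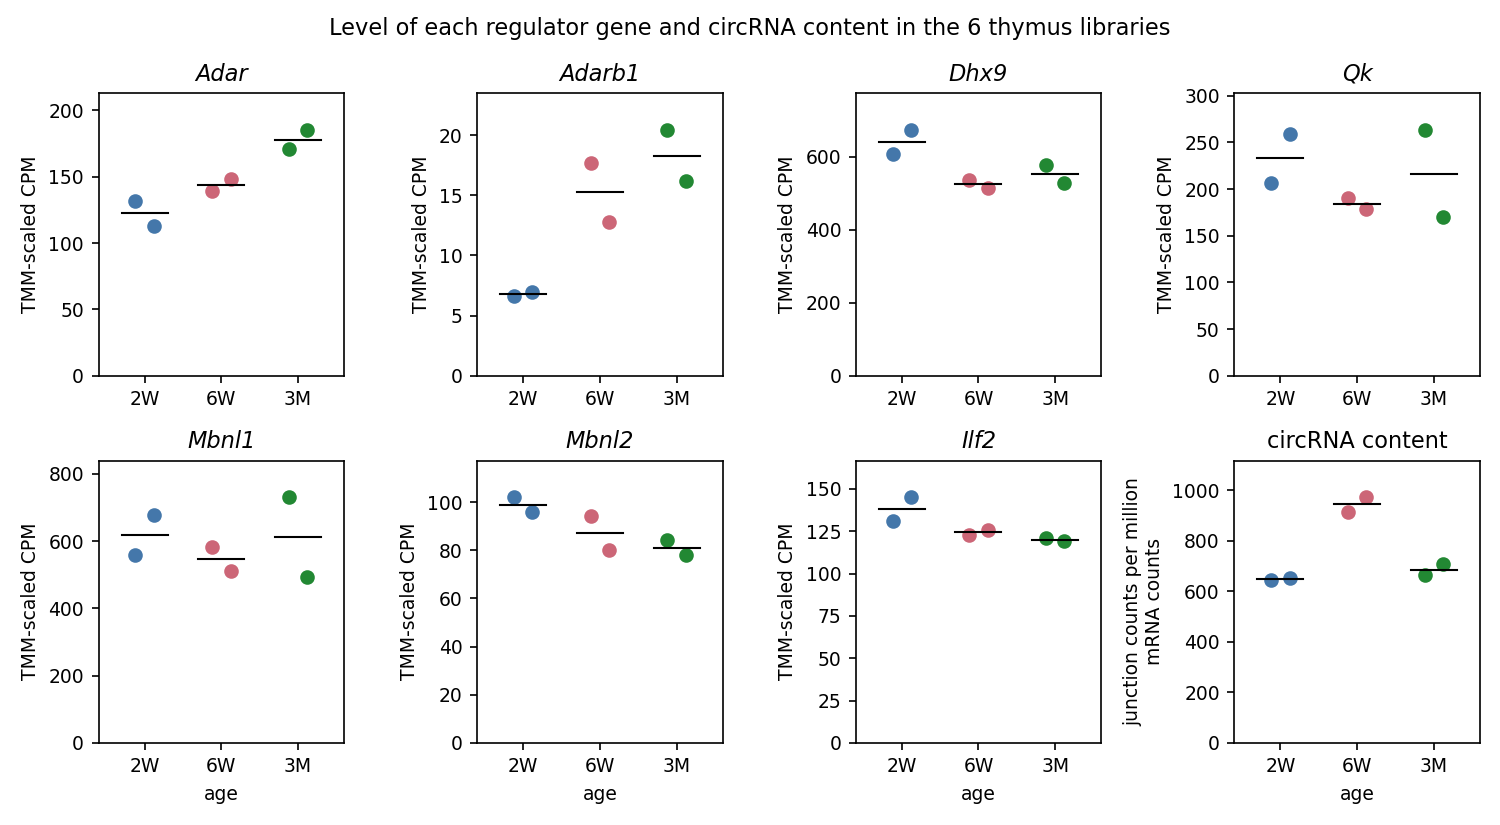
Level of each of the 7 genes in counts per 1000000 (CPM, scaled with TMM) and the circRNA content (junction counts per 1000000 mRNA counts) by age. Points are libraries and bars the means of 2. Adar goes from 113 and 132 at 2W to 171 and 185 at 3M and Adarb1 from 6.64 and 6.93 to 20.4 and 16.2, while the circRNA content is highest in the 6W libraries, at 916 and 972.

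Adar was at 132 and 113 CPM (counts per 1000000, with library sizes scaled by edgeR's TMM factors) in the 2W libraries, 139 and 148 CPM at 6W, and 171 and 185 CPM at 3M. No library of one age reached into the range of another, with 2W lowest and 3M highest. The difference between 3M and 2W was 1.46-fold (log2 fold change 0.54 ± 0.12 SE, adjusted p = 0.039), and it was made up of 0.23 ± 0.12 from 2W to 6W (adjusted p = 0.352) and 0.31 ± 0.12 from 6W to 3M (adjusted p = 0.330). The call rests close to the threshold. It was lost under 8 of 14 alternatives, with adjusted p from 0.052 to 0.189, while the log2 fold change stayed between 0.44 and 0.66. It was lost without 2W replicate 1 (adjusted p = 0.082), 2W replicate 2 (0.189), 3M replicate 2 (0.098) or either 6W library (0.116 for both).

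Adar is transcribed from more than one start, and the longer of its main proteins comes from a start that interferon switches on. RefSeq lists 3 promoter windows for Adar on GRCm38.p6, each with 250 bases before and 50 after the start. Which of them belongs to that start is not given in the table. The window that begins farthest along the chromosome, chr3:89730468-89730767 on the plus strand, is shown because it was the only one of the 10 windows of the 7 members with the letters GAAANNGAA on either strand. These letters are the core of the element bound by interferon-activated factors less its last base, and were searched for after the windows had been read. They are in capitals. The first match starts at the second base of the window, and the other starts 33 bases after the annotated start.
Adar: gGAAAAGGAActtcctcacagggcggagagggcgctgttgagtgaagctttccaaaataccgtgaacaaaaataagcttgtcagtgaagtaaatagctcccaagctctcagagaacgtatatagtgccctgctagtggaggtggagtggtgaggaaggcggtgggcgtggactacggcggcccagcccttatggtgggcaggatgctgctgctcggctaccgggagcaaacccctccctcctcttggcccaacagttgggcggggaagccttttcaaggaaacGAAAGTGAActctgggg
The letters were found in 8.56% of all 32851 RefSeq promoter windows, beside 1 of the 10 windows of the members. The full element, which has the letter A after these, was in none of the member windows and in 3.44% of all windows. A match of letters is a description of the window and not a binding site.

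Adarb1 was at 6.64 and 6.93 CPM at 2W, 17.7 and 12.8 CPM at 6W, and 20.4 and 16.2 CPM at 3M. Both 2W libraries lay well below the other 4, and the 6W and 3M libraries overlapped. It rose 2.70-fold from 2W to 3M (log2 fold change 1.43 ± 0.21 SE, adjusted p = 0.013), the largest change among the 7 genes. From 2W to 6W the difference was 2.24-fold (1.17 ± 0.21, adjusted p = 0.057). From 6W to 3M it was 0.26 ± 0.20 (adjusted p = 0.579). The 3M call was lost without 2W replicate 1 (adjusted p = 0.075) or 2W replicate 2 (0.064). The 6W difference was called in 6 of 14 alternatives, among them DESeq2 (adjusted p = 9.6e-04) and the fits without 3M replicate 1 (0.032) or 3M replicate 2 (0.034).

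Dhx9, the helicase, was at 609 and 673 CPM at 2W, 536 and 515 CPM at 6W, and 579 and 529 CPM at 3M. The 2W libraries were above the other 4, and the 6W and 3M libraries overlapped. The log2 fold changes were -0.29 ± 0.10 SE for 6W against 2W (adjusted p = 0.219), 0.08 ± 0.10 for 3M against 6W (0.766) and -0.21 ± 0.10 for 3M against 2W (0.251). None of these passed the test.

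**Figure D2:**
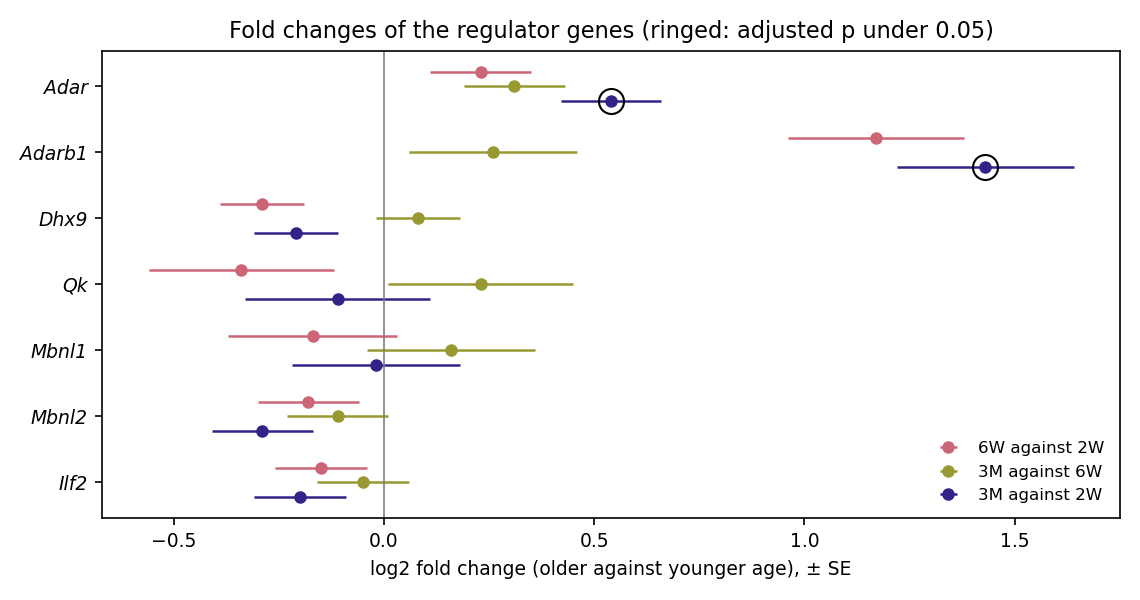
Log2 fold change of each gene in the 3 comparisons, older against younger age, with its standard error as a bar. The ringed points, Adar at 0.54 and Adarb1 at 1.43 in 3M against 2W, are the ones with an adjusted p under 0.05, and the other 5 genes lie between -0.34 and 0.23 in every comparison.

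Among the genes that favour back-splicing, Qk was at 207 and 259 CPM at 2W, 190 and 179 CPM at 6W, and 263 and 170 CPM at 3M. Mbnl1 was at 559 and 677 CPM, 583 and 512 CPM, and 730 and 492 CPM at the same ages. In CPM both genes were highest in 3M replicate 1 and 2W replicate 2 and lowest in 3M replicate 2, so that the libraries of one age differed as much as the ages did. In FPKM this order held for Qk but not for Mbnl1. Mbnl1 was at 168 FPKM in 3M replicate 1, 167 in 6W replicate 1 and 164 in 2W replicate 2, and lowest in 6W replicate 2 (148). Their log2 fold changes ran from -0.34 to 0.23 for Qk and from -0.17 to 0.16 for Mbnl1, with adjusted p from 0.436 to 0.799 and from 0.664 to 0.969. Over the 6 libraries the log2 CPM of the 2 genes had a Pearson r of 0.96, the highest of the 21 pairs of members. These points share library and depth, and the value is a description. The same libraries were high for other genes on the lists below, of which a pair is named after their values were seen: Srsf1, a splicing factor, was at 930 and 902 CPM in 2W replicate 2 and 3M replicate 1 and at 619 to 770 CPM in the other 4, and Xpo1, an export receptor, at 480 and 474 CPM against 290 to 352 CPM. A second principal component of all tested genes, with 25.0% of the variance, had its highest scores in 3M replicate 1 (0.75) and 2W replicate 2 (0.23) and its lowest in 6W replicate 2 (-0.50) and 3M replicate 2 (-0.31). What this axis is was not tested.

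Mbnl2 was at 102 and 95.9 CPM at 2W, 94.3 and 80.1 CPM at 6W, and 84.1 and 78.0 CPM at 3M. The 2W libraries were the highest, and its 3M against 2W difference was -0.29 ± 0.12 SE (adjusted p = 0.195). Ilf2 was at 131 and 145 CPM, 123 and 126 CPM, and 121 and 119 CPM, again with both 2W libraries on top, and differed by -0.20 ± 0.11 (adjusted p = 0.285). Neither gene passed the test in any comparison. Of the 7 members, 6 had libraries that did not overlap in 6W against 2W, beside 57.8% of all genes, 2 in 3M against 6W (49.2% of all genes) and 5 in 3M against 2W (51.8% of all genes). With 2 libraries an age, groups that do not overlap are common, and an exact permutation test cannot go below p = 0.333.

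The circRNA content had its highest mean at 6W, and none of the 7 genes had its highest mean CPM there. Junction counts per 1000000 mRNA counts were 645 (95% Poisson interval 633 to 658) and 653 (641 to 665) in the 2W libraries, 916 (903 to 929) and 972 (959 to 985) at 6W, and 663 (650 to 675) and 707 (695 to 718) at 3M. The intervals cover counting error only. The mean was 944 ± 39.3 (SD, n = 2) at 6W, 1.45 times the 649 ± 5.40 of 2W, and the 3M mean of 685 ± 31.1 was 0.725 times that of 6W (exact permutation test, two-sided, p = 0.333 for each, the smallest this design allows). The 6W libraries lay above the other 4 with a gap of 210 units, whereas the 2W and 3M libraries did not overlap but were 1.05-fold apart.

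Set beside this course, no member had both 6W libraries above, or both below, all of the other 4. Adar was between its 2W and 3M levels at 6W, where the content was highest. Adarb1 was already high at 6W and stayed so at 3M, when the content was near that of 2W. Dhx9 had its lowest mean at 6W (525 ± 15.1 CPM, SD, n = 2), but its 3M replicate 2, at 529 CPM, lay between the 6W libraries of 536 and 515 CPM. Qk also had its lowest mean at 6W (184 ± 7.59 CPM, SD, n = 2), with 3M replicate 2 below both. Mbnl1 had its lowest mean there as well (548 ± 50.6 CPM, SD, n = 2), and its 6W libraries overlapped those of 2W and of 3M. The 6 libraries fall into separate clusters of content (645 to 707 and 916 to 972), of 4 and 2 libraries. For that reason no correlation between a member's level and the content is given, and the relation cannot be tested here.

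**Figure D3:**
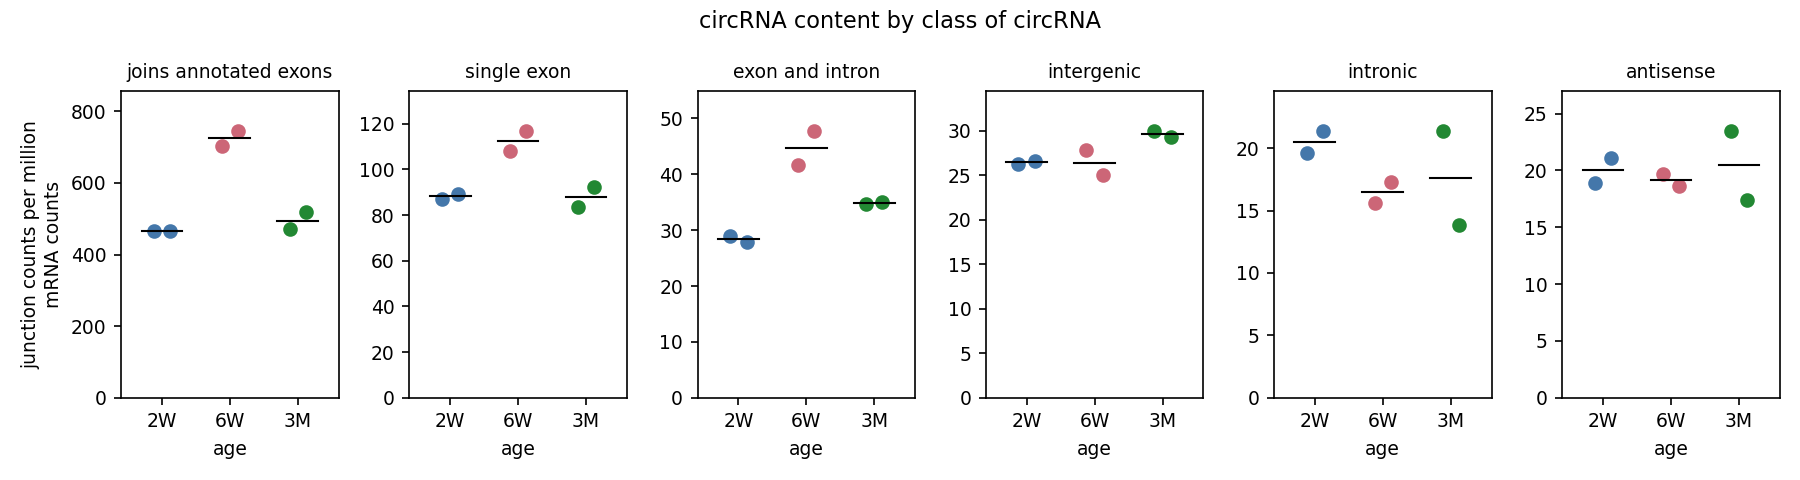
Junction counts per 1000000 mRNA counts for the 6 classes of circRNA in the deposited annotation, by age, with points for libraries and bars for means. The 3 classes on the left, which contain an exon, are highest in both 6W libraries (725 against 466 at 2W for circRNAs joining annotated exons), and the 3 on the right are not.

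The peak at 6W was in the classes that contain an exon. circRNAs that join annotated exons gave 465 and 467 junction counts per 1000000 mRNA counts at 2W, 703 and 746 at 6W, then 470 and 519 at 3M, a 1.56-fold difference between the means of 6W and 2W. Single-exon circRNAs went from a mean of 88.1 at 2W to 112 at 6W and 87.9 at 3M, and those that hold exon and intron from 28.4 to 44.7 and 34.9. In these 3 classes both 6W libraries were above the other 4. Intronic, antisense and intergenic circRNAs, with means of 16.4, 19.2 and 26.4 at 6W, showed no such peak, at 6W to 2W ratios of 0.803, 0.958 and 0.998.

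The counts were also followed by transcript. Of the 46 transcripts listed for the 7 genes, 36 passed the filter, and none had an adjusted p under 0.05 in edgeR, where 0% of all 35277 transcripts tested were called in each comparison. At an unadjusted p under 0.05 there were 1, 3 and 6 in the order 6W against 2W, 3M against 6W and 3M against 2W, beside 7.71%, 6.91% and 11.0% of all transcripts. The study's threshold was passed by 1, 2 and 2, beside 4.28%, 3.34% and 6.10%. DESeq2 called 1, 2 and 6, beside 5.14%, 4.0% and 8.94% of the transcripts it tested.

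The Adarb1 transcript ENSMUST00000020496 held 27.0% and 23.7% of the gene's counts at 2W, 68.6% and 79.0% at 6W, and 47.4% and 50.6% at 3M. Its estimated counts were 28.3 and 26.8 at 2W, 250 and 229 at 6W, then 161 and 183 at 3M, and the ages kept apart from each other. In edgeR it was higher at 6W than at 2W by 2.75 ± 0.28 on the log2 scale (adjusted p = 0.269) and at 3M than at 2W by 2.41 ± 0.27 (0.156), which passed the study's threshold but not the adjusted one. DESeq2 gave adjusted p of 5.0e-15 and 9.2e-12. Each of the other Adarb1 transcripts with 10% or more of the counts was at 0 in 1 library. ENSMUST00000105404 had 27.4 and 0 estimated counts at 2W, 39.5 and 38.0 at 6W, then 112 and 57.4 at 3M. Its ages were also apart, at a log2 fold change of 2.47 ± 1.78 SE for 3M against 2W (edgeR adjusted p = 0.687). ENSMUST00000098374, at 0 to 3.85 CPM, and ENSMUST00000126073, at 0 to 2.99 CPM, had 2W libraries that overlapped both other ages. How reads were divided among the transcripts of a gene is an estimate.

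Adar had 3 transcripts above 10% of its counts. ENSMUST00000107405 was at 42.0 and 51.3 CPM at 2W, 45.6 and 53.6 CPM at 6W, and 71.8 and 85.0 CPM at 3M. ENSMUST00000029563 was at 57.0 and 43.4 CPM, 64.5 and 70.8 CPM, and 67.9 and 84.1 CPM. Both were higher in the 3M than in the 2W libraries (log2 fold changes 0.75 ± 0.17 and 0.60 ± 0.19, edgeR adjusted p = 0.238 and 0.361, DESeq2 adjusted p = 0.0011 and 0.039). ENSMUST00000098924 showed no such difference, with 28.0 and 16.1 CPM at 2W and 24.4 and 19.8 CPM at 3M (log2 fold change 0.00 ± 0.31).

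**Figure D4:**
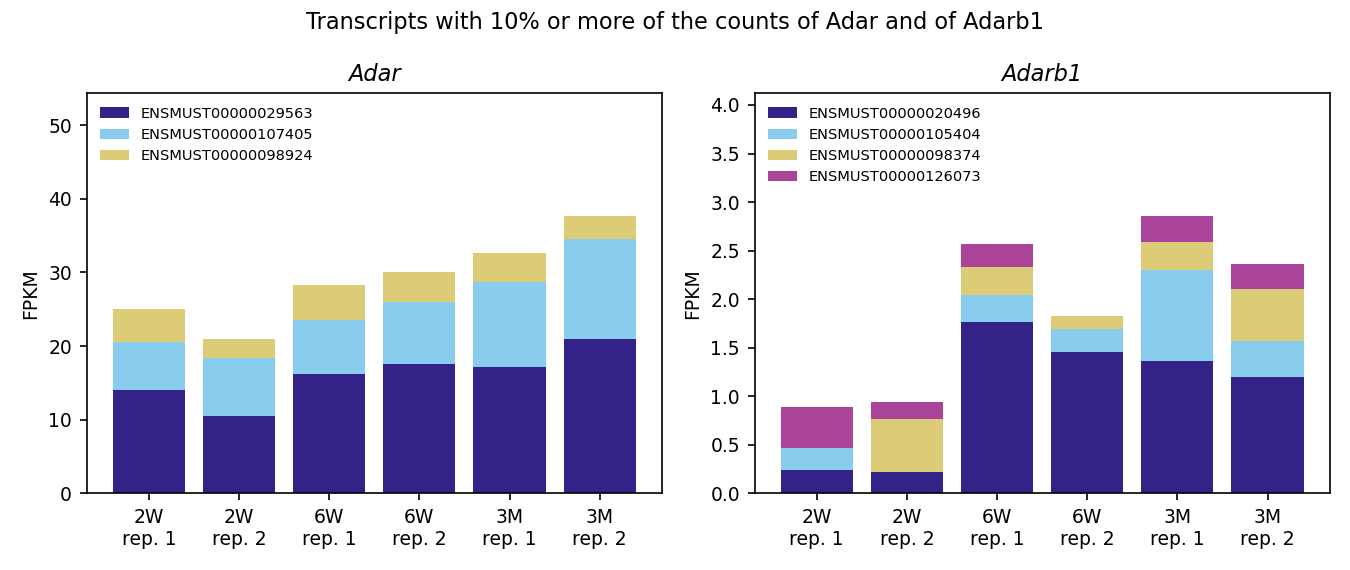
FPKM of the transcripts with 10% or more of the counts of Adar (left) and Adarb1 (right) in each of the 6 libraries, stacked. The dark Adarb1 segment, ENSMUST00000020496, is at 0.240 and 0.220 FPKM at 2W and at 1.76 and 1.45 FPKM at 6W.

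Single transcripts dominated Ilf2 (ENSMUST00000001042, the one transcript listed, at 118 to 143 CPM), Mbnl2 (ENSMUST00000227012, 78.7% to 89.4% of its counts, beside ENSMUST00000088419 at 0 to 15.6 CPM) and Dhx9 (ENSMUST00000042141, 78.9% to 88.8%). Qk was divided among ENSMUST00000097414, ENSMUST00000233645, ENSMUST00000233828 and ENSMUST00000042296. Of these ENSMUST00000233828 was the one with 3M libraries (45.5 and 34.3 CPM) above the 6W (28.1 and 33.0 CPM) and the 2W libraries (26.1 and 23.7 CPM), at an edgeR adjusted p of 0.317 and a DESeq2 adjusted p of 0.022 for 3M against 2W. In Mbnl1, assembled transcripts without an Ensembl number made up 27.7% of the counts. The largest of them, TCONS_00074393, was at 262 CPM in 3M replicate 1, 165 CPM in 2W replicate 2 and 69.6 to 96.3 CPM in the other 4 libraries. Of its Ensembl transcripts, ENSMUST00000099087 was at 158 and 198 CPM at 2W, 168 and 134 CPM at 6W, and 105 and 137 CPM at 3M (log2 fold change -0.56 ± 0.21 for 3M against 2W, edgeR adjusted p = 0.438). ENSMUST00000192807 was at 128 to 156 CPM in the 6 libraries. Without the assembled transcripts, the log2 fold change of Mbnl1 between 3M and 6W was -0.04 in place of 0.16.

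Some of these genes are themselves sources of circRNAs. Of the 6300 circRNAs of the deposited table, 16 had a member as their source gene: 11 from Mbnl1, 2 from Dhx9, 2 from Qk and 1 from Mbnl2. None was listed for Adar, Adarb1 or Ilf2. The table does not name its genome build. All 16 lie inside their source gene on GRCm38.p6, as 98.8% of the 6010 circRNAs that could be placed do, and positions are given as in the table. Tests were run on the 8 that reached 6 counts in all, and none had an adjusted p under 0.05 in edgeR or in DESeq2. In 6W against 2W, 3M against 6W and 3M against 2W, edgeR called 0%, 0.288% and 0.0360% of all 2779 circRNAs and DESeq2 0%, 0.0720% and 0%. At an unadjusted p under 0.05 there were 1, 0 and 0 of the 8, beside 4.61%, 5.0% and 4.32% of all circRNAs. The study's threshold gave the same 1, 0 and 0, beside 4.03%, 4.50% and 3.92%.

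The single-exon circRNA of Mbnl2, novel_circ_001991 (chr14:120324794-120325412, plus strand, 619 bases), was the most abundant of them, with 17 and 8 junction counts at 2W, 14 and 23 at 6W and 16 and 29 at 3M. It passed no test, at log2 fold changes of 0.63 ± 0.45 SE for 3M against 6W (adjusted p = 0.877) and 0.60 ± 0.47 for 3M against 2W (adjusted p = 0.860). In TMM-scaled junction counts, both 3M libraries were above both 6W libraries, and the 2W libraries overlapped the other ages. Its junction counts per 1000 Mbnl2 counts were 10.5 and 5.12 at 2W, 7.20 and 12.7 at 6W, and 11.4 and 16.6 at 3M, higher than for any other member, where this ratio was 2.24 or lower in every library.

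The Mbnl1 circRNA novel_circ_003800 (chr3:60595594-60603894, plus strand, 483 bases from annotated exons) had 0 and 1 junction counts at 2W, 6 and 10 at 6W, and 2 and 5 at 3M. As a share of junction counts, 6W was 8.57 times 2W, with an exact interval of 1.33 to 359 for counting error alone (edgeR p = 0.020 before adjustment, adjusted p = 0.874). Its log2 fold change of 3.18 was 2.24 without 2W replicate 1, 2.78 without 6W replicate 2 and 5.66 without 2W replicate 2, where the one 2W library left has no count and the value depends on the prior count. It was the one that passed the study's threshold in 6W against 2W. The single-exon Mbnl1 circRNA novel_circ_003797 (chr3:60528756-60529804, 1049 bases) had 5 and 7 counts at 2W, 3 and 5 at 6W, then 3 and 10 at 3M. It passed no test. Of the rest, novel_circ_000311 of Dhx9 had 1 to 5 counts a library, and novel_circ_000312 of Dhx9, novel_circ_003801 and novel_circ_003802 of Mbnl1 had 0 to 4. The Qk circRNA novel_circ_002468 had no count in 3 libraries (both of 2W and 6W replicate 1), 2 in 6W replicate 2 and 3 in each 3M library. None of these passed the test. The sequences of the circRNAs were not analysed here.

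Around the 7 members, 79 other genes reported to act on circRNAs were followed, in lists chosen with earlier results of these data known. Of them 76 were tested, and 11 were called in 3M against 2W, 8 higher and 3 lower (all genes: 11.0% called, 7.91% higher and 3.10% lower). None was called in 6W against 2W or 3M against 6W, where DESeq2 called 2 in each. The median log2 fold change of the 76 was -0.12 in 3M against 2W, beside -0.03 over all genes. The count of 11 changed with the libraries: it was 1 without 2W replicate 1, 0 without 2W replicate 2, 3 without either 6W library, and 7 without either 3M library.

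The genes that sense or degrade foreign and circular RNA held most of those that rose. Of 19 tested, 6 were called higher and none lower in 3M against 2W, where 7.91% of all genes were called higher and 3.10% lower. The list did not move as a whole. Of the 19, 11 had a log2 fold change above 0. Both 3M libraries lay above those of 2W for 8 and below them for 5, where 51.8% of all genes did not overlap. The median log2 fold change of the 19 was 0.12 (-0.03 over all genes). Oas1a, Oas2 and Oas3 encode 2'-5' oligoadenylate synthetases, which double-stranded RNA activates. Oas2 was at 5.75 and 5.95 CPM at 2W, 6.79 and 7.50 CPM at 6W, then 21.1 and 13.8 CPM at 3M (log2 fold change 1.57 for 3M against 2W, adjusted p = 0.013). Oas1a was at 12.3 and 9.93 CPM, 18.5 and 20.4 CPM, and 23.5 and 25.2 CPM (1.13, adjusted p = 0.011). For both genes, as for Adar, each age kept to its own range.

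Oas3 rose from 25.0 and 20.5 CPM at 2W to 46.7 and 42.6 CPM at 3M (log2 fold change 0.97, adjusted p = 0.013) and Oasl2, a related gene, from 62.0 and 58.2 CPM to 86.6 and 86.8 CPM (0.53, adjusted p = 0.024). Ddx58 and Ifih1 encode RIG-I and MDA5, cytoplasmic sensors of viral RNA, and editing by ADAR1 keeps MDA5 from responding to the RNA of the cell itself. They rose by 0.57 (adjusted p = 0.033) and 0.59 (adjusted p = 0.047). Eif2ak2, the kinase PKR that circRNAs can hold inactive, was at 41.2 and 50.4 CPM at 2W and at 71.1 and 48.6 CPM at 3M (0.38, adjusted p = 0.267). Ago2 (0.13, adjusted p = 0.430), Upf1 (-0.04, 0.906) and Ythdf2 (-0.21, 0.243), which act in RNA decay, did not pass the test either. Of 11 alternatives, Oas1a lost its call in 1 and Oas2 and Oas3 in 2 each, with adjusted p of 0.060, 0.065 and 0.068 without 2W replicate 2 and, for Oas2 and Oas3, 0.075 and 0.050 without 2W replicate 1. Oasl2 and Ddx58 lost it in 7 and Ifih1 in 8 of the 11. Without 2W replicate 1, 2W replicate 2, 6W replicate 1 or 6W replicate 2, the adjusted p of these 3 genes ran from 0.080 to 0.188. That of Ddx58 and Ifih1 was 0.066 and 0.082 without 3M replicate 1, and that of Oasl2 was 0.050 without 3M replicate 2 and 0.563 without assembled transcripts. Their log2 fold changes stayed above 0 throughout, between 0.44 and 0.75.

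Of the 6 genes of this list that rose, 5 have a RefSeq promoter window. Of these, 4 held the letters GAAANNGAA seen in the Adar window, beside 5 of the 14 genes of the whole list that have one. Unlike the Adar window, these 4 windows also held the full element with the letter A after, as did that of Eif2ak2, which was not called. The full element was in 3.44% of all windows. The 4 are shown to be read against the Adar window above, on the strand of the gene. Each is given as the match nearest to the annotated start (in capitals, with an overlapping match where there is one) and up to 20 bases on either side. The windows are at chr5:120907476-120907775 (Oas1a), chr5:120777610-120777909 (Oas3), chr4:40239776-40240075 (Ddx58, where the letters are on the opposite strand) and chr2:62646206-62646505 (Ifih1).
Oas1a: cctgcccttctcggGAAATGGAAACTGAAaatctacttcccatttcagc
Oas3: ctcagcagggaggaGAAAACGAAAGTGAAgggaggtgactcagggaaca
Ddx58: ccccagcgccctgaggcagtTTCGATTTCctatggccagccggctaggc
Ifih1: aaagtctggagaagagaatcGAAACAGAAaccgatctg
The genes were chosen for having risen, and the letters after the Adar window had been read, so that no test of their number is given.

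**Figure D5:**
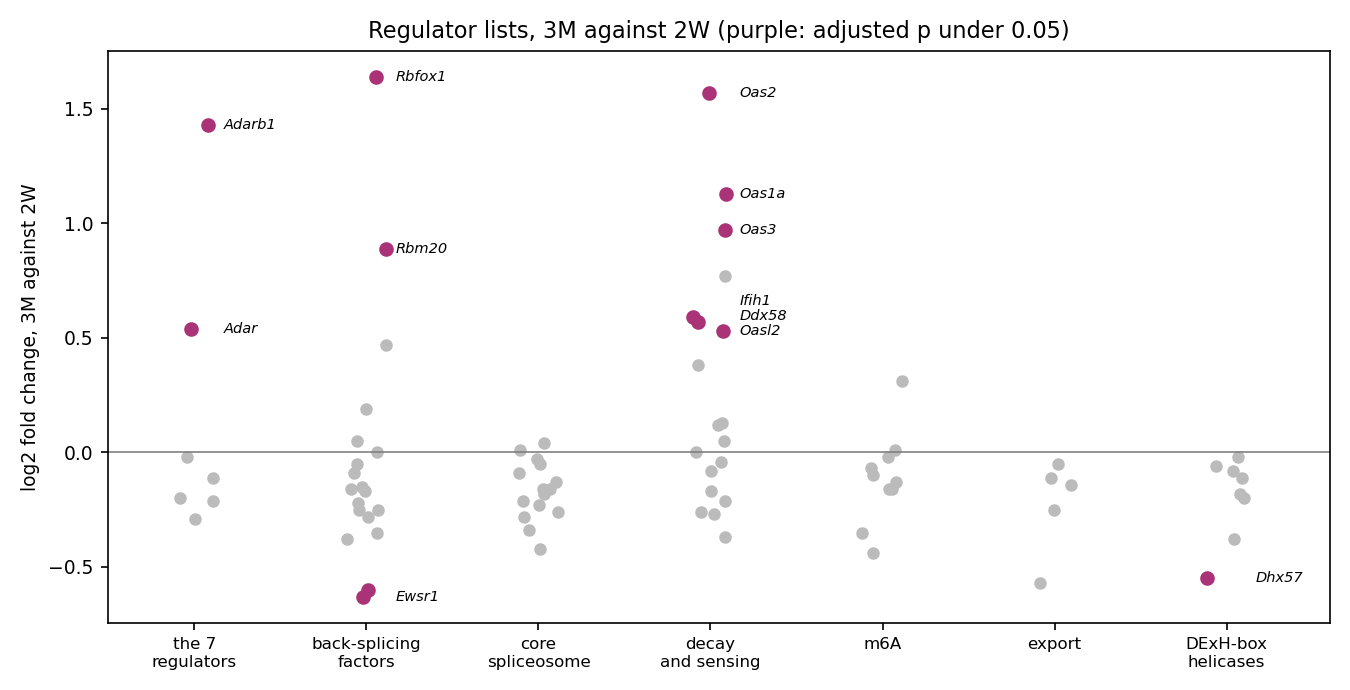
Log2 fold change, 3M against 2W, of the 7 members and of the tested genes of each list, 1 point a gene. Purple points have an adjusted p under 0.05, and those described in the text are named: 6 genes of the decay and sensing list lie above 0, among them Oas2 at 1.57, and Ewsr1 at -0.63 and Dhx57 at -0.55 lie below.

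Among 19 other factors of back-splicing, 2 rose and 2 fell from 2W to 3M, beside 7.91% of all genes called higher and 3.10% lower. The median log2 fold change of the 19 was -0.16 (-0.03 over all genes). Ewsr1, which encodes an RNA-binding protein, was at 394 and 314 CPM at 2W, 297 and 317 CPM at 6W, and 241 and 216 CPM at 3M. It fell by 0.63 on the log2 scale from 2W to 3M (adjusted p = 0.035). Rbm20 and Rbfox1, splicing factors best known from muscle and neurons, rose by 0.89 (adjusted p = 0.040) and 1.64 (adjusted p = 0.036), both from low levels: Rbfox1 was at 0.759 and 0.981 CPM at 2W and at 3.19 and 2.28 CPM at 3M. Of 11 alternatives, Ewsr1 and Rbfox1 lost their calls in 7 each and Rbm20 in 8. For all 3 these included leaving out either 2W or either 6W library, with adjusted p from 0.054 to 0.167. Leaving out 3M replicate 1 also ended the calls of Rbm20 (0.055) and Rbfox1 (0.091), and leaving out 3M replicate 2 those of Ewsr1 (0.074) and Rbm20 (0.099). Mbnl3 (-0.28, adjusted p = 0.475), Hnrnpl (-0.09, 0.654), Nudt21 (-0.17, 0.482) and Khsrp (0.00, 0.996) did not pass the test.

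The remaining lists held few calls. Of 8 DExH-box helicases related to Dhx9, 1 was called in 3M against 2W, beside 11.0% of all genes: Dhx57 fell by 0.55 (adjusted p = 0.040). Its call was lost in 9 of 11 alternatives, among them each fit without 1 of the 6 libraries (adjusted p from 0.059 to 0.161). None of 15 core spliceosome genes (median log2 fold change -0.16), 10 genes of the m6A mark (-0.12) and 5 export genes (-0.14) was called in 3M against 2W by edgeR. The export helicases, whose choice depends on the length of the circRNA, gave -0.25 (adjusted p = 0.204) for Ddx39a, listed as Ddx39 in the table, and -0.14 (adjusted p = 0.501) for Ddx39b. Adarb2, the third deaminase of the family, had 3 to 11 estimated counts a library and was not tested, like Adad1 and Adad2, with at most 2.

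The genes whose log2 CPM followed each member most closely over the 6 libraries are named by Pearson r, with no test, since with 6 points many genes reach a high value (648 of 14804 had an r over 0.9 with Adar). They were Oas1c (0.998) and Entpd3 (0.995) for Adar, Map3k6 (0.996) for Adarb1, and Tmem169 and Eml5 (both 0.996) for Dhx9. For Qk they were Mbd4 (0.999) and Hook3 (0.998), and for Mbnl1 Selenot (0.999) and Etfrf1 (0.998). Mbnl2 was followed by Zfp106 (0.991) and Thnsl2 (0.986), and Ilf2 by Spg11 (0.988) and Bcl7c (0.987). Oas1c was at 1.83 and 1.53 CPM at 2W and 2.53 and 2.82 CPM at 3M, and Map3k6 at 0.948 and 0.981 CPM at 2W, 2.81 and 1.94 CPM at 6W, and 3.13 and 2.82 CPM at 3M.

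Markers of cell types moved with age in the same libraries. In whole tissue, fewer cells of a type and less RNA per cell cannot be told apart. The 12 markers of thymocytes that carry both CD4 and CD8 summed to 17662 to 19506 CPM at 2W. The sums were 16501 to 16567 CPM at 6W and 14305 to 14433 CPM at 3M. Rag1 alone gave 7542 to 11178 CPM of these sums (log2 fold change -0.33 for 6W against 2W). In 6W against 2W, 5 of the 12 had a log2 fold change above 0, and in 3M against 2W none had. In 3M against 2W 5 of 12 fell, beside the 3.10% of all genes called lower and 7.91% called higher there. The 6 myeloid markers summed to 219 to 239, 474 to 514 and 523 to 545 CPM (4 of 6 rose from 2W to 3M), and the 6 adipocyte markers to 46.8 to 49.4, 116 to 121 and 131 to 237 CPM (5 of 6 rose). As for Adarb1, both sums were low in the 2W libraries and higher in the other 4. Of 8 fibroblast markers, which summed to 381 to 614 CPM over the libraries, 2 rose and 3 fell between 2W and 3M. Of 10 markers of thymic epithelium, at 1455 to 1981 CPM, 2 rose and 1 fell. The 6 endothelial markers, at 198 to 234 CPM, and the 5 B cell markers, at 43.2 to 70.3 CPM, held no call in edgeR. Red blood cell markers summed to 2162 CPM in 3M replicate 2, beside 401 to 814 CPM in the other libraries, and the markers of skeletal muscle (6.01 to 13.6 CPM) and neurons (21.8 to 25.3 CPM) were low throughout. No listed marker was at 0 in all libraries. The part of these cell types in the course of Adar, Adarb1 or the Oas genes was not tested.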

How the data were processed

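Thymus RNA of 2, 6 weeks and 3 months was sequenced by the study after removal of rRNA, in libraries that mark the strand. The authors deposited estimated counts and FPKM per transcript for mRNAs and lncRNAs, and junction counts and RPM (per 1000000 junction counts of the library) per circRNA. The submitters' processing notes name Bowtie 0.12.2 and the build mm8 without a role, and the programs behind the tables are not given in the sources used here. The miRNA table was not used here.

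Estimated counts were summed by gene symbol, joining spellings that differ in case, and rounded. Rows without a symbol (0.6995% to 1.1954% of counts) stayed out of the sums. edgeR 4.0.16 (R 4.3.3) was run on all 6 libraries with TMM scaling and filterByExpr, and circRNAs needed 6 counts in all. Adjustment (Benjamini-Hochberg) ran over each whole table. The 2 libraries of an age are biological replicates per the methods, and whether each came from 1 animal or a pool is not given in the sources used here. DESeq2 1.42.0, limma 3.58.1 on log2(FPKM + 0.1) and leaving out each library were among the alternatives, and scripts were tested on simulated data. Tables were handled in Python 3.11.15 with scipy 1.17.1.

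The members and lists were chosen with earlier results of these data known. Named are all members, their transcripts with 10% or more of the member's counts, their circRNAs with at least 6 counts, fixed genes of the lists, every list gene called, and the 2 genes most like each member. Marker lists covered thymocytes, thymic epithelium, fibroblasts, endothelium, adipocytes, skeletal muscle, red blood cells, myeloid cells, B cells and neurons. Fold changes of genes with few counts depend on edgeR's prior count of 0.125. Sequences are from RefSeq, GRCm38.p6. Some genes that the rule names are not reported here.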

Additional observations from a re-analysis of the deposited data

How the results depend on the processing

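Directions and calls were recomputed under each alternative. The number of members called in 6W against 2W was 0 and became 1 with DESeq2, without a filter, with only the 4 libraries compared and with scaling by total counts, and 0 to 1 with a library left out. In 3M against 2W it was 2 and became 1 with only the 4 libraries compared, with the replicate block and without assembled transcripts (an alternative chosen after seeing the data), and 0 to 2 with a library left out. In 3M against 6W it stayed at 0. Called among the other regulators were 2 (DESeq2), 1 (total counts) and 0 to 2 (a library left out) in 6W against 2W, 2 (DESeq2) in 3M against 6W, and in 3M against 2W 3 with the replicate block, 4 without assembled transcripts, 0 to 7 with a library left out and 14 with DESeq2, in place of 11. Member transcripts called by DESeq2 were 1, 2 and 6 in place of 0. The cause of these changes was not tested. The circRNA content ratio of 6W to 2W was 1.56 for circRNAs joining annotated exons, 1.54 for those with a circBase identifier and 1.51 for those with at least 2 counts in the library. That of 3M to 6W was 0.682 for annotated exons, and that of 3M to 2W was 1.09 with a circBase identifier.

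Directions changed in members that passed no test. Qk in 3M against 6W was -0.03 with limma and -0.11 to 0.46 with a library left out, and in 3M against 2W -0.43 to 0.14. Mbnl1 was -0.04 in 3M against 6W without assembled transcripts and -0.14 to 0.36 with a library left out, and 0.05 in 3M against 2W with total counts and -0.30 to 0.21 with a library left out. Mbnl2 in 3M against 6W was -0.22 to 0.02 with a library left out. novel_circ_001991 in 6W against 2W was 0.20 with mRNA counts as the scaling and -0.76 to 0.55 with a library left out, and novel_circ_003797 in 3M against 2W -1.02 to 0.37. The Adar transcripts ENSMUST00000107405 in 6W against 2W and ENSMUST00000029563 in 3M against 6W were -0.05 to 0.24 and -0.01 to 0.31 with a library left out. Of 294 refits of single members, most of them never called, 268 kept direction and side of the threshold. Adar and Adarb1 in 3M against 2W lost the call in 8 and 2 of 14. The called regulators kept it in 57 of 121 refits and lost it in 64. The sources used here do not say that replicate numbers pair the samples across ages. Differences between replicates 1 and 2 correlated across genes at -0.06 (2W and 6W), -0.18 (2W and 3M) and 0.35 (6W and 3M). Whether replicates of the same number share a batch was not tested. With the replicate block, Adar in 3M against 2W had an adjusted p of 0.105 and Adarb1 0.026. The relation of member level to content was not computed under its alternatives, since the libraries fall into separate clusters. Depth limits the circRNAs of member genes, of which 8 of 16 had at least 6 counts.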
